A study of Ovis aries and Mus musculus with 10 samples.

Results

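The Dlk1-Dio3 region is an imprinted locus, in which a gene is expressed from only the maternal or only the paternal chromosome. Its paternal chromosome expresses the protein-coding genes Dlk1, Rtl1 and Dio3, and its maternal chromosome expresses long noncoding RNAs (Meg3, also called Gtl2, then antisense Rtl1, Rian and Mirg), along which a large group of miRNA hairpins lies. These miRNAs are known mainly from embryo, placenta, brain and muscle, and in sheep the same region carries the callipyge mutation, which enlarges muscle. The members described here are the mouse miRNAs on the array, passenger (star) strands aside, whose probe coordinates place them in this cluster on mouse chromosome 12 (genome build mm9). They number 59 of the 567 mouse miRNAs measured, from 48 hairpins, of which 11 have both arms on the array, and they span chr12:110801929-110981994.

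RNA from whole mammary gland of ewes and of mice labelled CD1 was hybridised to 10 Agilent miRNA arrays with mouse probes. Of the 5 sheep arrays, 1 was from cycle day 15, 3 from gestation (days 14, 64 and 125) and 1 from lactation day 60. Of the 5 mouse arrays, 1 was from virgin gland, 2 from gestation (days 10 and 17) and 2 from lactation (days 2 and 10). No treatment was given, the labels do not name the breed of the ewes, and they do not say whether a sample was 1 animal or a pool. Each stage and day has 1 array, so p-values measure the spread between days of a stage and between species, not between animals of a stage.

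Levels are given as a percentage of the reference, which is the 75th percentile signal of the 94 miRNAs detected on all 10 arrays, taken on each array. The reference signal was 1998 units in sheep in cycle and 788.5 in sheep lactation, and 936.6 at mouse gestation day 17 and 245.6 at mouse lactation day 10. A miRNA called detected is one that the scanner software flagged so, and the weakest detected signals (the 5th percentile) lay at 0.441 to 1.28% of the reference on the sheep arrays and at 0.871 to 2.90% on the mouse arrays. In whole tissue, fewer cells of a type and less RNA per cell cannot be told apart.

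Along the cluster, members fell into a proximal stretch, a block antisense to Rtl1, a sparse middle and a dense distal block. The proximal stretch beside Meg3 (10 members, chr12:110801929-110824597) gave 1 detected member, miR-337-5p, in mouse alone. Of the 6 members antisense to Rtl1 (chr12:110828675-110833562), 3 were detected, miR-127, miR-434-3p and miR-136, and each was seen on 3 or more arrays. The sparse middle by Rian (chr12:110849772-110920438) has 3 members over 70667 bp, and miR-341 and miR-370 were detected there, in sheep alone. The distal block by Mirg (chr12:110947280-110981994) packs 40 members into 34715 bp, and 18 of them were detected on at least 1 array.

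**Figure D1:**
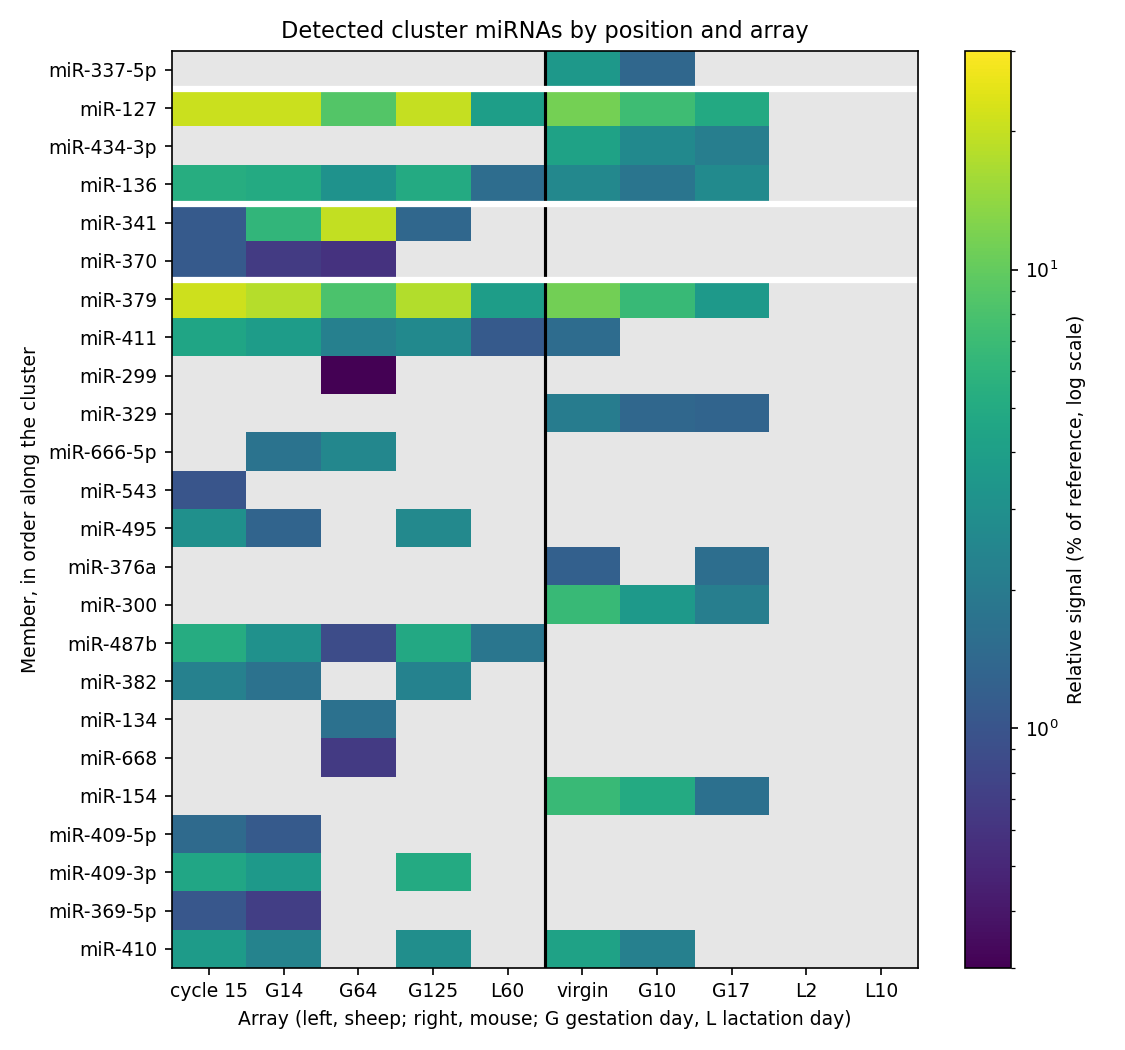
Level of each detected member (rows, in order along the cluster, with white lines between the 4 stretches) on each array (columns, sheep left of the black line and mouse right of it), as % of reference on a log colour scale, with grey for not detected. The columns of both mouse lactation arrays are grey throughout, and the rows of miR-127, miR-136 and miR-379 are filled on all 8 other arrays. miR-299, whose mean signal lay below 0 on the array that flagged it, takes the lowest colour.

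In all, 24 of the 59 members (40.7%) were detected on at least 1 array, beside 267 of the 567 mouse miRNAs (47.1%). Detection covered 3 or more arrays for 15 members and 1 or 2 arrays for 9, and the other 35 were never detected, with signals between -11.4 and 6.63 units. By array, members detected numbered 14, 14, 11 and 10 in sheep from cycle through gestation day 125 and 5 in sheep lactation. In mouse they numbered 11 in virgin gland, 9 at gestation day 10, 8 at gestation day 17, and 0 on both lactation arrays. The share of members detected was below the share of all miRNAs on every array. At sheep lactation 8.47% of members and 27.5% of all miRNAs were detected, and at mouse lactation days 2 and 10 the shares of all miRNAs were 25.4% and 22.0% beside 0 of 59 members.

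**Figure D2:**
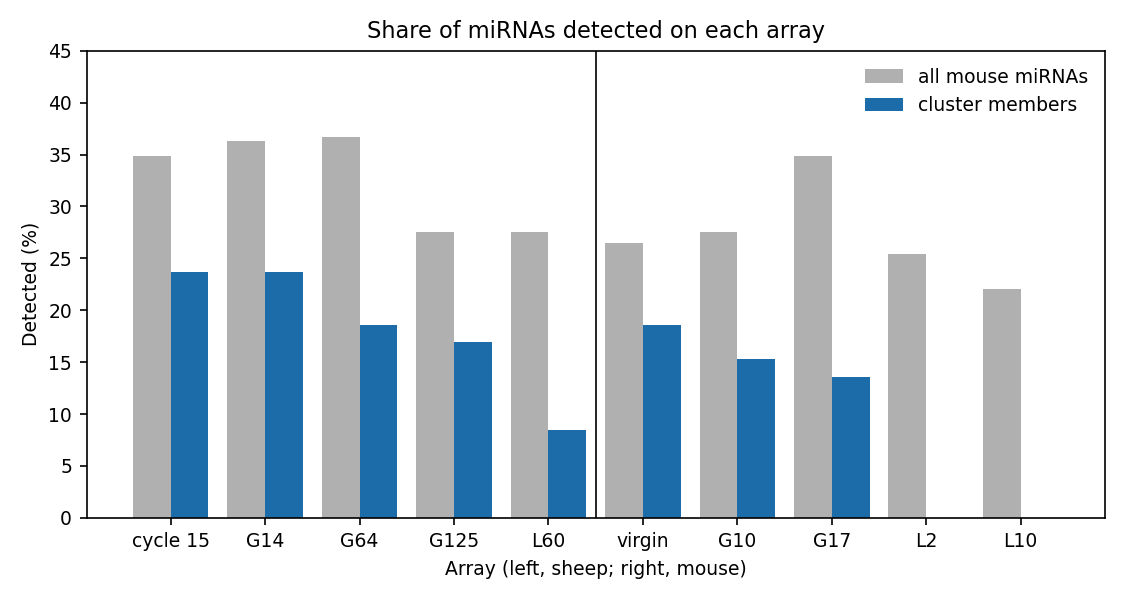
Percentage of the 59 members (blue) and of all 567 mouse miRNAs (grey) flagged as detected on each array, sheep left of the line and mouse right of it. Blue bars go from 23.7% in cycle to 8.47% in lactation in sheep and from 18.6% in virgin gland to 0 in mouse, and grey bars lie between 22.0% and 36.7%.

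In mouse, 7 members were detected on all 3 arrays before lactation (miR-127, miR-434-3p, miR-136, miR-379, miR-329, miR-300 and miR-154), and none of the 7 on either lactation array. Over all mouse miRNAs, 19 of 139 (13.7%) went undetected that way. Among the 44 other miRNAs no brighter before lactation than the brightest of the 7 (7.84% of the reference on average), 10 did so (22.7%). In sheep, 6 members were detected on all 4 arrays before lactation and 1 of them, miR-341, was not detected in lactation, beside 10 (6.90%) of all miRNAs detected on those 4 arrays. This way of counting was chosen after the values were seen. Before lactation miR-329 read 1.33 to 2.06%, miR-136 1.79 to 2.72% and miR-434-3p 2.15 to 4.27% in mouse. The weakest detected signals (5th percentile) lay at 2.20 and 2.90% at lactation days 2 and 10. For members this weak, loss of detection does not show a fall in level. The mouse lactation arrays also had the lowest reference signals, and the part of that in the loss of detection was not tested.

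The members antisense to Rtl1 lie opposite a retrotransposon-derived gene that the placenta needs, and miR-127 and miR-136 are complementary to its transcript. In sheep, miR-127 (chr12:110831102-110831119) stood at 20.7% of the reference in cycle, then at 20.6, 8.73 and 20.0% on the 3 gestation arrays in order of day, and at 3.94% in lactation. In mouse it stood at 11.4% in virgin gland, 7.20 and 4.93% during gestation in order of day, and 1.51 and then 0.117% in lactation. The SE between spots, pooled over its 2 probes, was 0.62 to 2.9% in sheep and 0.26 to 1.9% in mouse. Lactation arrays were the lowest in both species, and gestation day 64 was the lowest of the sheep gestation arrays.

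miR-136 (chr12:110833541-110833562) read 5.30, 5.02, 3.14, 4.97 and 1.55% from sheep cycle to sheep lactation, and 2.56, 1.79, 2.72, 1.14 and 0.992% from virgin mouse to lactation day 10. Its sheep values dip at day 64 and in lactation as those of miR-127 do, and its mouse values before lactation have no single direction. miR-434-3p (chr12:110832779-110832796) had no sheep signal, at -0.115, 0.0419, -0.142, -0.158 and -0.236%, and in mouse it read 4.27, 2.65 and 2.15% before lactation and 0.638 and -0.537% in lactation. The remaining 3 members of the block, miR-431, miR-433 and miR-434-5p, were never detected.

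In the distal block, miR-379 is the first hairpin. miR-379 (chr12:110947280-110947295) read 21.0, 18.1, 8.10, 17.8 and 3.90% in sheep and 11.3, 6.65, 3.60, -0.0272 and -1.25% in mouse, with an SE between spots of 0.72 to 3.2% and 0.34 to 2.2%. Although a long stretch of genome lies between them, its course on the 10 arrays runs beside that of miR-127. miR-411, the next hairpin, read 4.50, 3.82, 2.24, 2.65 and 1.11% in sheep, where it was detected on every array, and 1.53% in virgin mouse, its only mouse array with detection. On the later mouse arrays it read 0.446, 0.912, -0.520 and -1.02%.

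**Figure D3:**
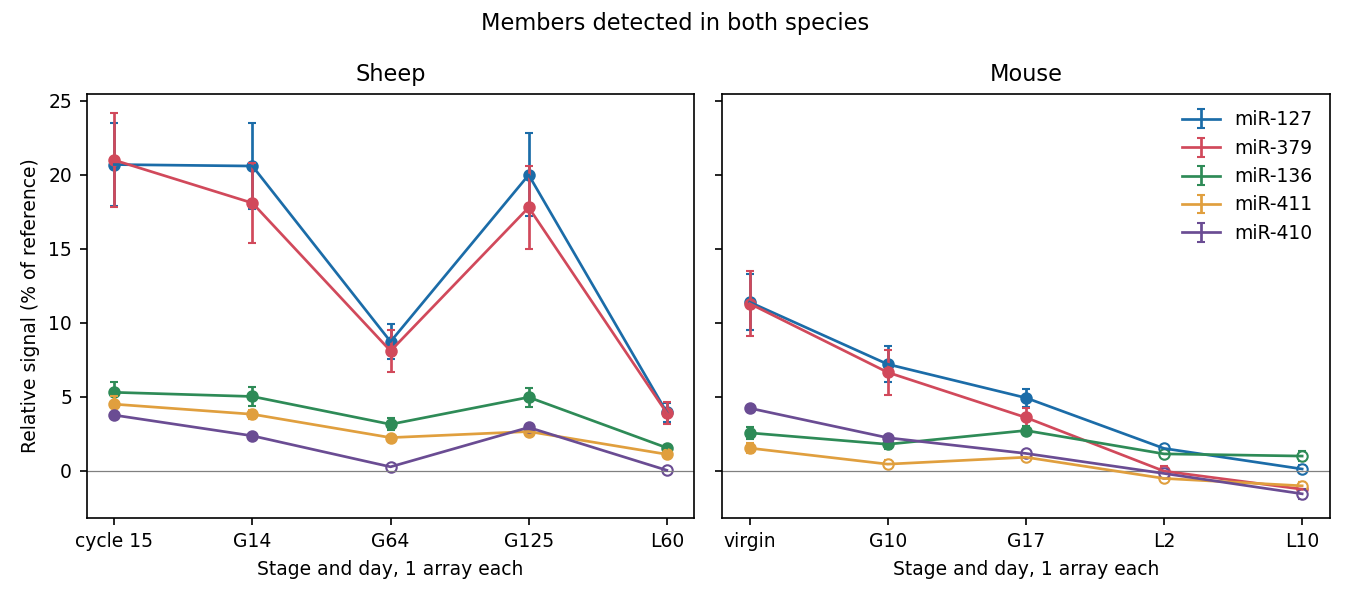
Level of the 5 members detected in both species (% of reference, linear axis) by stage and day, with sheep on the left and mouse on the right; error bars are the SE between spots of 1 array, and open circles mark arrays without detection. In sheep miR-127 and miR-379 are low at gestation day 64 and lactation day 60. In mouse both go lower from virgin gland through gestation day 17, and neither is detected in lactation.

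miR-410, the last hairpin at the distal end (chr12:110981976-110981994), read 3.76, 2.36, 0.265, 2.93 and 0.033% in sheep and 4.23, 2.23, 1.17, -0.183 and -1.56% in mouse. It was highest in cycle among the sheep arrays and in virgin gland among the mouse arrays, and it was not detected at sheep day 64, at mouse day 17 or in lactation. Of the other distal members seen in sheep and not in mouse, miR-487b read 5.15, 3.08, 0.881, 4.79 and 1.84%, and miR-409-3p read 4.58, 3.63, 0.674, 5.03 and 0.532%. miR-495 read 3.05, 1.32, 0.113, 2.62 and 0.293%, and miR-382 read 2.29, 1.70, 0.436, 2.31 and -0.0231%. All 4 have their gestation minimum at day 64. On the mouse arrays from virgin gland to lactation day 10, miR-487b read -0.496, -0.346, 0.248, 0.526 and -0.00864%, and miR-409-3p 0.0715, 0.0473, 0.450, -0.211 and -0.230%. There miR-495 read 0.0665, 0.278, 0.307, -0.116 and -0.564%, and miR-382 read 0.974, 0.240, 0.455, -0.469 and -1.16%, and none of the 4 was detected.

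Other distal members were seen in mouse alone. miR-154 read 6.82, 5.04, 1.64, 0.847 and 0.225% from virgin gland to lactation day 10, and miR-300 read 6.70, 3.58, 2.16, 0.0255 and -0.612%. miR-329 read 2.06, 1.40, 1.33, 0.644 and 1.03%, close to the weakest detected signals. In sheep, where none of them was detected, miR-154 read 0.0195, 0.130, 0.0312, 0.0294 and 0.172%, miR-300 read -0.0276, 0.0103, -0.163, -0.250 and -0.283%, and miR-329 read -0.0155, 0.197, 0.154, -0.0757 and -0.0508%. All 3 were highest in virgin gland.

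miR-341 had another course. This member of the sparse middle (chr12:110849772-110849786) read 1.11% in sheep cycle, then 6.26, 19.6 and 1.40% over the gestation arrays in order of day and 0.619% in lactation, and was below 0 on all 5 mouse arrays, at -0.442, -0.668, -0.269, -1.32 and -2.24%. The day 125 value lies under the lowest signal well above background on that array, 2.26%. It was at its highest on the array where miR-127 and miR-379 were at their gestation low. Its neighbour miR-370 read 1.11, 0.674 and 0.584% on the 3 sheep arrays that detected it, 0.660% at day 125 and -0.754% in lactation, and in mouse it read -0.590, -0.742, -0.0491, -1.69 and -2.13%. On sheep gestation day 64, 3 more members had their highest sheep value. They were miR-666-5p (1.73% at day 14 and 2.55% at day 64), miR-134 (1.66%), which is known from neurons for a role in dendritic spines, and miR-668 (0.654%).

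The rest of the 9 members seen on 1 or 2 arrays were weak. miR-337-5p read 3.51 and 1.39% in virgin mouse and at gestation day 10, and miR-376a read 1.24% in virgin mouse and 1.58% at gestation day 17. In sheep, miR-543 read 1.01% in cycle, miR-409-5p 1.47% in cycle and 1.1% at day 14, and miR-369-5p 1.05 and 0.699% on those same arrays. miR-299 carried a detection flag at sheep day 64 with a mean signal of -0.160%.

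Of the 18 members detected in sheep, 11 were highest in cycle, beside 20.9% of all 234 miRNAs detected in sheep. Day 64 was highest for 4 of the 18, beside 33.8% of all. None was highest in lactation, beside 17.5%. Of the 11 detected in mouse, 9 were highest in virgin gland, beside 16.3% of 208 miRNAs, and 2 (miR-136 and miR-376a) at gestation day 17. None was highest at lactation day 2 or 10, beside 10.6% and 28.4%.

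Steps between neighbouring sheep stages compare single arrays and carry no test. They are log2 differences with signals below a sheep floor of 1.28% of the reference set to it, and their errors are between spots. The spots of all probes of a miRNA were pooled, so these errors also hold differences between probes, which both arrays share. They do not measure the error of a difference alone. A member above the floor on 1 side only could move in just 1 direction, so the counts are given with the number of such members and support no direction by themselves. From cycle to gestation day 14 the median of the 12 members above the floor was -0.22, with 1 lower by at least 2-fold (all miRNAs, 4.76%) and 1, miR-341, higher (5.95%). From gestation day 14 to 64, 4 of 12 members were lower by at least 2-fold (all miRNAs, 5.75%) and 1, again miR-341, was higher (10.3%). Of the 9 lower members 5 were at the floor at day 64, and of the 6 members above it on both arrays 4 were lower, 2 of them by at least 2-fold. miR-127 differed by -1.24 ± 0.28 (SE between spots) and miR-379 by -1.16 ± 0.33. From day 64 to day 125, 6 of 12 were higher by at least 2-fold (all miRNAs, 22.3%) and 1, miR-341, was lower (24.0%), while 7 of the 12 were at the floor on 1 side. miR-127 differed by 1.20 ± 0.28 and miR-379 by 1.14 ± 0.33 on that step.

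The day 64 dip is a single array. Between days 14 and 125 members went both ways, with 5 of 11 higher and 6 lower. miR-495 was 1.98-fold higher at day 125, miR-127 differed by -0.0413 and miR-379 by -0.0222, and miR-341 was lower. Without scaling 10 of the 11 were lower at day 125, and 9 of the 11 were higher there on the scale of the authors' table. Between days 64 and 125, before scaling, when the median of the 94 shared miRNAs differed by -0.59 (log2), miR-127 still went from 136.2 to 188.2 units and miR-379 from 126.4 to 167.1. Of the 12 members on that step miR-136 and miR-411 turned to lower without scaling, from 49.0 to 46.6 and from 34.9 to 24.9 units. The step from day 14 to 64 kept 9 of 12 members lower without scaling, as a share of the array's total and on the scale of the authors' table.

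From gestation day 125 to lactation day 60 all 10 members above the floor were lower, 8 of them by at least 2-fold, beside 23.0% of all miRNAs. In lactation 6 of the 10 were at the floor, so their direction was set by the filter, and the other 4 (miR-127, miR-136, miR-379 and miR-487b) were lower by at least 2-fold. miR-127 differed by -2.35 ± 0.30 or 5.09-fold and miR-379 by -2.19 ± 0.35 or 4.57-fold. miR-136 (1.55%) and miR-487b (1.84%) were detected but not well above background in lactation. From cycle to lactation 8 of 10 members were lower by at least 2-fold, beside 28.5% of all miRNAs, with the same number, 6, at the floor in lactation.

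**Figure D4:**
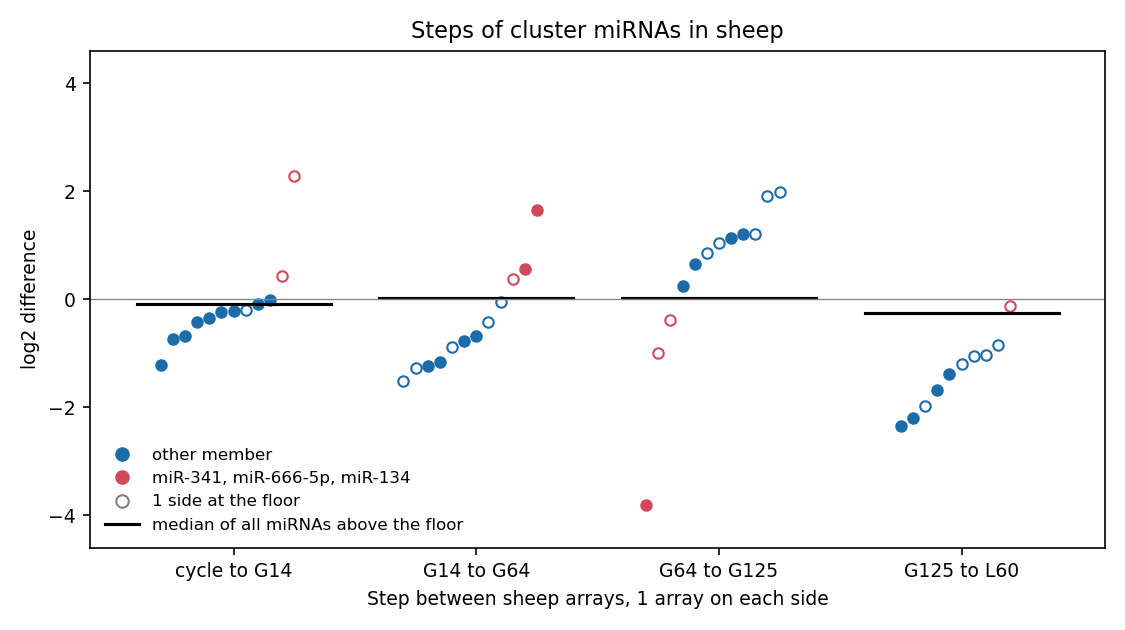
Log2 difference of each member above the sheep floor (points) for each step between neighbouring sheep arrays, with a black line at the median of all miRNAs above the floor; open points have 1 side at the floor and red points are miR-341, miR-666-5p and miR-134. Blue points lie mostly below the line from G14 to G64, above it from G64 to G125 and below it from G125 to L60, while red points go the other way on the G64 steps.

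In mouse, with a floor of 2.90% of the reference, all 7 members above it were lower at gestation day 10 than in virgin gland, and 3 of them were at the floor at day 10. None passed 2-fold, beside 6.62% of all miRNAs. miR-127 differed by -0.66 ± 0.34. From virgin gland to gestation day 17, 4 of the 7 were lower by at least 2-fold (all miRNAs, 13.7%). Of the 7, 5 were at the floor at day 17 and could only be lower, and the same floor leaves out miR-136 and miR-376a, which read higher at day 17. The 2 above the floor on both arrays were lower, with miR-127 at -1.21 ± 0.30 and miR-379 at -1.65 ± 0.38. Slide 2 held virgin gland and gestation day 10, and slide 1 held the remaining 8 arrays, so the step from virgin gland to day 10 lies within a slide, and in comparisons of these arrays with mouse day 17 or lactation the stage and the slide cannot be told apart.

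Where a member was neither detected nor well above background on any array of a group, its fold was set against a replacement level. That level was the lowest signal well above background on each array of the group. It is no strict limit. At mouse gestation day 10 miR-379, at 6.65%, was not well above background, although the lowest signal that was lay at 2.08%. These folds are therefore not lower bounds, and they make no allowance for the SE between spots. For virgin gland over the replacement level of mouse lactation, the fold was 2.44 for miR-127 and 2.42 for miR-379. Their measured levels in mouse lactation were 0.815 and -0.638%, beside 11.4 and 11.3% in virgin gland. The same fold was 1.46 for miR-154 and 1.44 for miR-300. For mouse gestation over that level it was 1.28 for miR-127 and 1.05 for miR-379. For sheep cycle over the replacement level of sheep lactation, it was 2.94 for miR-409-3p, 2.41 for miR-410, 1.96 for miR-495 and 1.47 for miR-382.

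Over all 10 arrays, limma was fitted to 213 miRNAs detected on at least 3 arrays, with species and stage class as terms and signals below 2.90% of the reference set to that floor. The 15 members tested passed through the arrays where they are high, and 3 of them (miR-370, miR-329 and miR-382) sat at the floor on all arrays and could show no difference. In lactation against gestation 0 of the 15 passed an adjusted p of 0.05, beside 2.82% of all miRNAs tested, and 2 members had an unadjusted p under 0.05. These were miR-127, at -1.45 ± 0.36 (log2 ± SE, limma adjusted p = 0.0877; 3 lactation and 5 gestation arrays), and miR-379, at -1.22 ± 0.39 (limma adjusted p = 0.165). With slide as a term miR-127 was at -1.40 ± 0.44, and on slide 1 alone at -1.40 ± 0.49. The members' median was -0.08 beside -0.00181 for all, and 11 members were below 0 and 1 above. Most members sat at the floor on all 3 lactation arrays, where a group mean could only be equal or lower. The member above 0, miR-495 (0.0042), and miR-434-3p (-0.0316) were at the floor on every gestation array too. Their signs come from the other arrays through the model, so this split supports no direction.

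In lactation against the gland that was not pregnant, 1 of the 15 members, miR-410, passed, beside 3.76% of all miRNAs. It fell by 0.47 ± 0.04 on the log2 scale (limma adjusted p = 0.00359; 3 lactation and 2 other arrays), with slide as a term by 0.43 ± 0.05 (limma adjusted p = 0.0401) and on slide 1 alone by 0.37 ± 0.01 (limma adjusted p = 0.00035). On slide 1 sheep cycle is the single array that is not pregnant, and on all 3 lactation arrays miR-410 sits at the floor, so these errors hold no spread among lactation values. miR-127 differed by -2.09 ± 0.44 (limma adjusted p = 0.0528) and miR-379 by -2.09 ± 0.48 (limma adjusted p = 0.0670), both short of the threshold. miR-136 was at -0.36 (limma adjusted p = 0.536). In gestation against the gland that was not pregnant miR-410 again was the single member called, beside 0.469% of all miRNAs, and fell by 0.45 ± 0.04 (limma adjusted p = 0.00239). Only sheep day 125, at 2.93%, lay above the floor of 2.90% among its gestation values. This error therefore holds almost no spread among them, although the measured levels ran from 0.265 to 2.93%.

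The miR-410 call is small because 7 of its 10 values lie at the floor. The measured levels behind it are 3.76 and 4.23% in cycle and virgin gland and at most 2.93% elsewhere, and without floored miRNAs in the fit its adjusted p rose to 0.059 for lactation and 0.726 for gestation. Background correction by normexp, the brightest probe alone, quantile normalization, no scaling and a percentile over all miRNAs also ended both calls. Under normexp, which added an offset of 50 units, and under the brightest probe both miR-410 differences were 0, so no call was possible there. Leaving out any 1 array ended neither call. With 7 of its 10 values at the floor those fits had little spread left, so this does not show a stable call.

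Between species, 0 of the 15 members passed, beside 21.6% of all miRNAs tested, with 3 members at an unadjusted p under 0.05. miR-127 was higher in sheep by 1.00 ± 0.31 (limma adjusted p = 0.0667; 5 against 5 arrays) and miR-379 by 1.07 ± 0.34 (limma adjusted p = 0.0672). The change from gestation to lactation, compared between the species by its own contrast, passed for 0 members, beside 0.939% of all miRNAs, and for 0 at an unadjusted p under 0.05. Its estimate for miR-127 was -0.92 ± 0.77 (limma adjusted p = 0.976), an interval too wide to say that the species act alike or differ.

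By detection, 5 members were seen in both species (miR-127, miR-136, miR-379, miR-411 and miR-410), 13 in sheep alone and 6 in mouse alone. Over all mouse miRNAs 175 were seen in both, 59 in sheep alone and 33 in mouse alone. The match of the mouse probes to sheep miRNAs was not tested. A RefSeq table of the sheep genome (ARS-UI_Ramb_v3.0) lists 55 miRNA genes between DLK1 and DIO3, in which 36 members have a gene of the same name, 5 one with a letter added and 18 none. Of the 13 seen in sheep alone 11 have a sheep gene of that name, and miR-341 and miR-666-5p do not. Of the 6 seen in mouse alone 1 has one (miR-376a), 2 have one with a letter (miR-329 and miR-154) and 3 have none (miR-337-5p, miR-434-3p and miR-300).

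Signal summed over the members detected on each array, to which bright probes add most, was 76.05, 70.09, 47.96, 64.52 and 12.33% of the reference in sheep and 55.58, 31.94, 20.11, 0 and 0% in mouse. As a share of the summed signal of all detected miRNAs these are 0.957, 0.895, 0.555, 0.692 and 0.144% in sheep and 0.683, 0.399, 0.258, 0 and 0% in mouse. By position, the distal block gave 47.82, 37.51, 15.91, 38.12 and 6.84% in sheep and the antisense Rtl1 block 26.01, 25.64, 11.87, 25.0 and 5.49%. The order of the arrays was the same in both blocks apart from days 14 and 125. The sparse middle was highest at day 64 instead, at 20.18%, but miR-341 alone gave 19.6% there. Its neighbour miR-370 was highest in cycle, at 1.11%, so this is the course of a single member. No sheep gene of the name miR-341 was listed between DLK1 and DIO3.

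Sums of miRNAs associated with cell types also differed between the arrays, and not always in the direction of the cluster sum. The epithelial list (miR-200 family, miR-141, miR-429 and miR-205, 6 of 6 detected on all arrays) summed to 386 to 1160% of the reference in sheep, with 1020% in lactation, and to 180% in virgin mouse and 1420% at mouse lactation day 10. The fibroblast and smooth muscle list (5 of 6 on the array, 3 of them detected on all arrays) read 300, 272, 278, 122 and 83.2% in sheep and 266, 297, 175, 93.8 and 64.2% in mouse. The members of a list did not move as 1: in sheep from cycle to lactation miR-199b went from 185 to 32.9% and miR-143 from 32.8 to 34.2%, and in mouse from virgin gland to lactation day 10 miR-199b went from 195 to 23.7% and miR-143 from 18.6 to 37.5%. From sheep day 14 to day 64, where most cluster members were lower, miR-199b went from 132 to 100.0% and miR-214 from 18.1 to 10.9%, while miR-199a-5p, miR-143 and miR-145 were higher at day 64. In the epithelial list miR-205 went from 46.4% in sheep cycle to 23.0% in lactation. The striated muscle list, of a tissue where the cluster is known to be active, summed to 194% in virgin mouse, 1.39% at gestation day 10, 75.3% at day 17, 0 to 9.26% in sheep and 0 on both mouse lactation arrays. Red cell miRNAs summed to 14.6 to 60.9% in sheep and 172 to 597% in mouse, leukocyte miRNAs to 22.5 to 109% in sheep and 30.2 to 59.3% in mouse, endothelial miRNAs to 113 to 258% in sheep and 139 to 221% in mouse, and adipocyte miRNAs to 68.6 to 151% in sheep and to at least 167% on each mouse array. These are associated miRNAs, not defining markers, and their part in the results was not tested.

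**Figure D5:**
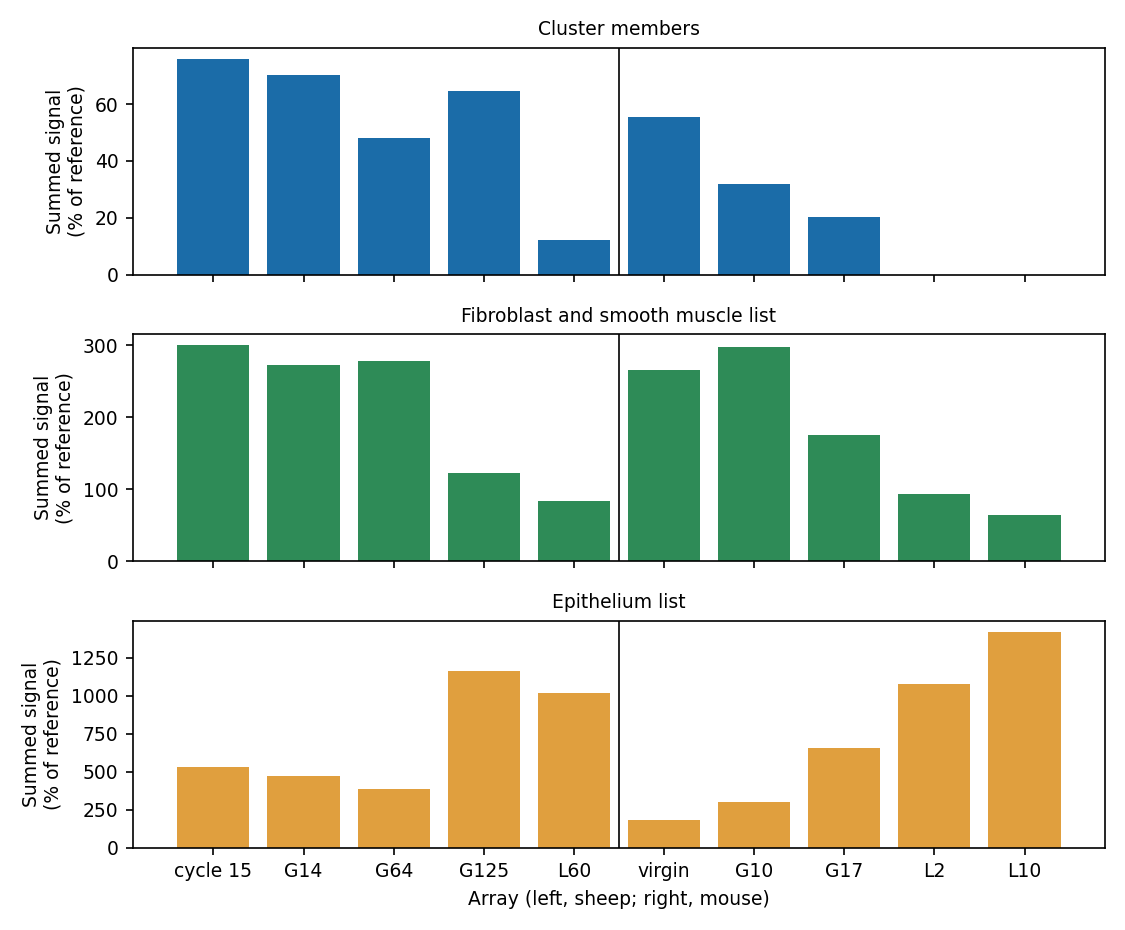
Summed signal (% of reference, linear axes from 0) of the detected cluster members, of the fibroblast and smooth muscle list and of the epithelium list on each array, sheep left of the line and mouse right of it. The sums of the cluster and of the fibroblast list, in which miR-199b weighs most, are low in lactation and the sum of the epithelium list is high; at sheep G125 the cluster sum is 64.52% and the fibroblast sum 122%.

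Of 8 miRNAs from other imprinted loci on the array, 4 were detected on at least 1 array. miR-296-5p was detected on all 10, at 2.16, 6.69, 12.6, 2.19 and 4.77% in sheep and 4.04, 5.45, 4.03, 7.71 and 11.7% in mouse. Unlike the cluster members detected in mouse, its scaled level was highest in mouse at lactation day 10. The reference it is divided by was 245.6 units there and 598.1 to 936.6 units on the mouse arrays before lactation. Its order before scaling was not compared, and this difference carries no test.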

How the data were processed

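The authors' deposited scanner output gives each spot's intensity (linear, arbitrary units), background-subtracted and not normalized between arrays, and flags of 0 or 1 for detection and outliers, per the file headers. The headers give Feature Extraction 10.5.1.1 and the submitters' processing notes 9.5. The value table the authors deposited is an intensity too: it equals the software's total signal times 1 constant per array (98.65 to 100% of bright miRNAs within 0.1%), with medians of -0.526, 0.307, 0.266, -3.94, -2.80, -11.2, -5.06, 0.836, -2.35 and -11.6 in array order; the basis of the constants is unknown. Outlier spots were left out, spots and then probes were averaged, and signals were scaled to the reference of their array (75th percentile, 94 miRNAs). The floor was the highest 5th percentile of detected signals. limma 3.58.1 in R 4.3.3 fitted 213 miRNAs with Benjamini-Hochberg adjustment, and was tested on simulated data. No spot was saturated. Members detected on at least 3 arrays are named with all values, and those on 1 or 2 with their values there. The members and lists were chosen with earlier results of these data known. 1 miRNA of the interval is not reported here. The number of arrays limits the precision.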

Additional observations from a re-analysis of the deposited data

Results flagged for a closer look

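The passenger strands of the interval, which the comparisons leave out, gave signal for 4 of 13 star sequences. miR-299* was detected on 8 arrays (5 sheep and 3 mouse), with its highest level, 4.19% of the reference, in virgin mouse, whereas the named strand miR-299 was flagged on 1 array. miR-411* was detected on 3 arrays, all of sheep, with its highest level of 2.54% in cycle. miR-136* and miR-382* were each detected on 1 array, sheep cycle. None of the 13 was detected in mouse lactation.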

How the results depend on the processing

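No paired analysis was possible because no number or animal in the labels links 1 array to another. Members called in lactation against gestation (0 as reported) became 2 without scaling (miR-127 and miR-379), 3 with a floor 4 times lower (with miR-136) and 1 without miRNAs at the floor on all arrays (miR-127), while calls among all miRNAs went from 6 to 22, 24 and 15. The count of members stayed 0 when each array was left out in turn. Against the gland that was not pregnant, members called in lactation (1 as reported) became 0 with normexp, quantile normalization, a percentile over all miRNAs, the brightest probe or sheep alone, 2 without scaling, without floored miRNAs or in mouse alone, and 5 with the lower floor, where calls among all miRNAs went from 8 to 29. Leaving out arrays gave 1 to 3, with 3 without sheep cycle. Members called in gestation (1 as reported) became 0 with normexp, without scaling, with quantile normalization, a percentile over all miRNAs, the lower floor, no floored miRNAs, the brightest probe or sheep alone, and 2 on slide 1 alone or in mouse alone. Leaving out arrays gave 1 to 3, with 3 without sheep cycle and 2 without virgin mouse. Sheep against mouse (0 as reported) gave 6 members without scaling, 2 with quantile normalization, 2 with a percentile over all miRNAs, 9 with the lower floor (5 higher in sheep, 4 lower) and 2 without floored miRNAs, while calls among all miRNAs went from 46 to 87, 45, 46, 95 and 59. Leaving out arrays gave 0 to 1 (1 without sheep gestation day 64). The species difference in the lactation change gave 0 to 2, with 1 without sheep day 64 and 2 without mouse day 17, and could not be estimated without sheep lactation. The cause was not tested.

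miR-127 and miR-379 in lactation against gestation turned to 0.00751 and 0.0261 with normexp. Its offset of 50 units lies above the signals of both on every lactation array and shrinks differences. With arrays left out miR-136 ranged from -0.30 to 0.0544 (without sheep lactation) there and, in gestation against the gland that was not pregnant, from -0.39 to 0.120 (without sheep cycle). Requiring at least 50% of spots well above background moved detected members from 5 to 2 in sheep lactation, 11 to 7 in virgin mouse, 9 to 3 at mouse day 10 and 8 to 5 at mouse day 17. The summed signal in sheep lactation over cycle was 0.162, and 0.0640 without scaling, 0.198 in the authors' table, 0.179 with normexp and -0.114 over all 59 members, where signals below 0 outweigh the rest. In mouse, gestation day 17 over virgin gland was 0.362, and 0.567 without scaling, 0.0825 in the authors' table, 0.434 with normexp and 0.814 over all 59 members. Without scaling the median of all tested miRNAs was -0.67 in lactation against gestation and 0.69 in sheep against mouse. The weakest detected signals on the mouse lactation arrays lay at 2.20 and 2.90% of the reference, and lower levels there have no order. The settings by species and the sum over all members were chosen after seeing the data.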
